A study of Mus musculus with 4 samples.

Results

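Transcripts of SIRPA, of its ligand CD47 and of other receptors and phosphatases that restrain macrophages were read after zymosan. The 9 genes were Sirpa, Cd47, Ptpn6, Ptpn11, Inpp5d, Lair1, Pirb, Cd300a and Cd200r1, and every probe set (a group of short oligonucleotides aimed at 1 transcript) whose only symbol in the platform annotation was 1 of these was taken. This gave 23 probe sets of the 45037 on the array that are not controls, or 9 of 18193 genes that have a probe set with 1 symbol. The genes were chosen by a model that already had differences between these same arrays in view, so their differences are given as a description and support nothing by themselves. Testing asked for a value at or above an array's 40th percentile on 2 or more arrays, a level of 4.36 to 4.39 on the log2 scale, and all 23 did so.

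The stimulated cells were MyD88 -/- bone marrow-derived macrophages exposed to zymosan, a particulate extract of yeast cell wall, at 100 ug/ml for 120 min (2 arrays). The others were MyD88 -/- macrophages of the same growth conditions, 6 days in recombinant human M-CSF, left without stimulus at 0 min (2 arrays). MyD88 carries signals of most Toll-like receptors and of the interleukin-1 receptor, and every cell compared here lacked it, so no value below bears on what MyD88 does. Both zymosan arrays have ZYM in their titles, while the unstimulated arrays have LPS in one title and PIC in the other, although the source labels call the LPS and PIC arrays unstimulated. No label explains these codes or gives the mouse or culture behind an array. The spread between arrays of a group may therefore be technical, and an exact 2-sided permutation test of 2 arrays against 2 cannot give a p under 0.333.

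Inhibitory receptors of leukocytes carry tyrosine motifs in their cytoplasmic tails, called immunoreceptor tyrosine-based inhibitory motifs. When a ligand is bound, Src family kinases phosphorylate the motif, and the tyrosine phosphatases SHP-1 and SHP-2 or the lipid phosphatase SHIP-1 dock there and reverse the signals of activating receptors. SIRPA on macrophages is known for reading CD47 on other cells, a contact that holds back their engulfment.

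The zymosan arrays were hybridized on 1 day, 153 days after the first unstimulated array, and the unstimulated arrays 16 days apart. Another operator ran the zymosan arrays. Since the groups share neither a day nor an operator, these and zymosan cannot be told apart in any difference below. The macrophage markers had a median log2 value of 11.06 and 11.24 on the zymosan arrays, against 11.90 and 12.01 on the unstimulated ones, and none of the 11 measured lay below the filter's level throughout. Of the T and NK cell markers 5 of 8, among them Cd3d and Cd3g, were below that level on all arrays. So were 5 of 8 markers of mast cells and basophils and 4 of 9 of stromal cells. Fewer were below it among markers of B cells (1 of 7), dendritic cells (2 of 7) and neutrophils (1 of 13). Of the erythroid and megakaryocyte markers 1 of 8 was below it, and that list had medians of 5.57 to 6.31.

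**Figure D1:**
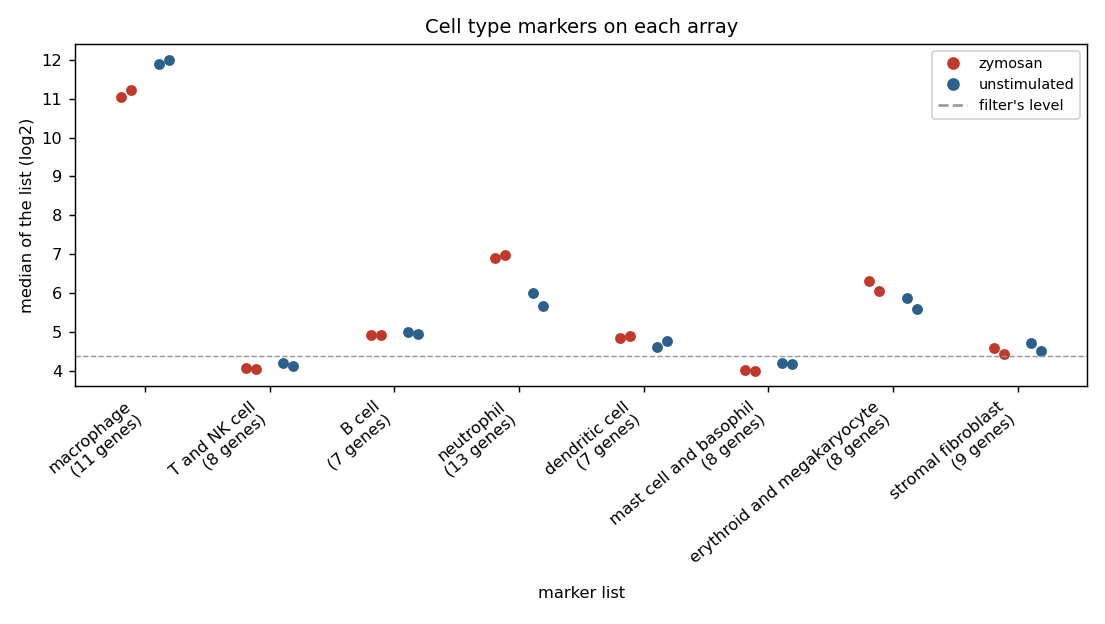
Median log2 value (vertical axis) of 8 marker lists (horizontal axis) on each array, with zymosan arrays in red and unstimulated arrays in blue; points are single arrays and the dashed line is the level of the filter. The macrophage list stands highest on all arrays and lower on the zymosan arrays (11.06 and 11.24) than on the unstimulated ones (11.90 and 12.01), and the neutrophil list is higher on the zymosan arrays (6.91 and 6.99) than on the unstimulated ones (5.99 and 5.67).

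Sirpa and the genes of the phosphatases SHP-1 and SHIP-1 were lower after zymosan at some or all of their probe sets, and Cd47 was higher at 1 of 5. Of the 23 probe sets, 5 fell and 1 rose at an adjusted p under 0.05 in limma's fit over all 27571 kept probe sets, where 7.45% of the kept probe sets fell and 8.48% rose. The 5 were those of Sirpa (2 of 3), Ptpn6 (2 of 2) and Inpp5d (1 of 2). Zymosan and unstimulated arrays did not overlap at 10 probe sets that were lower and 5 that were higher, against 30.2% and 30.4% of all kept probe sets. The median difference was 0.0082 for the 23 probe sets and -0.0094 for all kept ones (log2). Since the genes were chosen on this comparison, nothing is read from these shares.

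**Figure D2:**
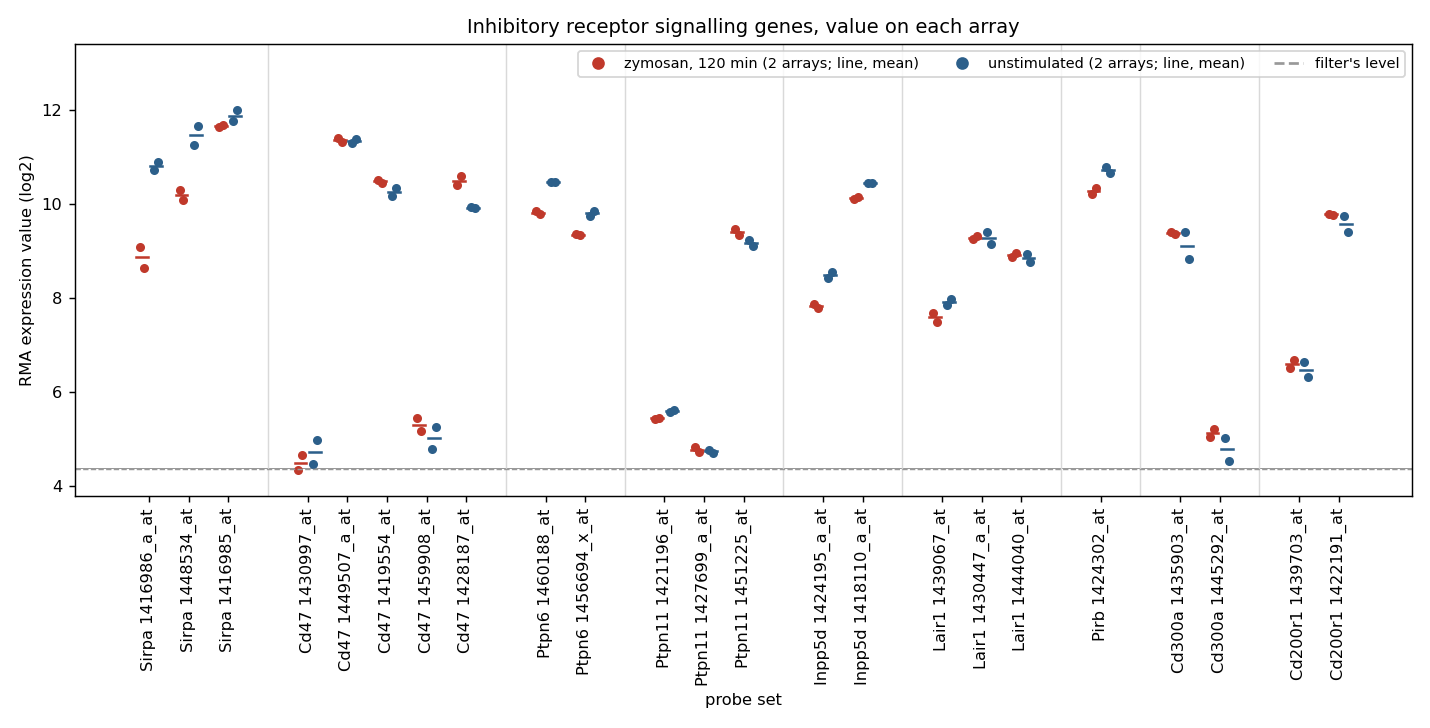
RMA log2 value (vertical axis) of each probe set (horizontal axis, by gene) on the 2 zymosan arrays, in red on the left, and the 2 unstimulated arrays, in blue on the right, with a line at each mean; the dashed line is the level of the filter. Sirpa at 1416986_a_at shows the widest gap, with 9.08 and 8.65 on zymosan arrays under 10.73 and 10.88 on unstimulated ones, and the Cd300a points of the unstimulated arrays lie apart from each other.

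Sirpa encodes the receptor itself, and its 3 probe sets gave unlike readings. At 1416986_a_at the log2 values were 9.08 and 8.65 on the zymosan arrays, against 10.73 and 10.88 on the unstimulated arrays. The groups were well apart there, and the difference of -1.94 (SE 0.17) made the signal 3.85-fold lower after zymosan. It was the 84th largest decrease among the 27571 kept probe sets. At 1448534_at the values were 10.31 and 10.09 with zymosan, against 11.25 and 11.66 without. The lower unstimulated array still stood above both zymosan arrays, and the difference was -1.26 (SE 0.17), or 2.39-fold lower. At 1416985_at the values were 11.64 and 11.67 with zymosan, against 11.75 and 11.99 without, a difference of -0.22 (SE 0.12) that did not pass the threshold. This probe set also had every zymosan array under every unstimulated one, though the closest arrays differed by just -0.08.

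All 3 Sirpa probe sets were thus lower on zymosan arrays, with differences that ranged over 1.73 on the log2 scale. The suffix a marks probe sets whose oligonucleotides match several transcripts of the same gene. Where on the gene each of the 3 sits is not given in the files used here. In RNA from whole cultures, fewer macrophages and less Sirpa RNA per macrophage cannot be told apart. Macrophage markers were lower as well, with 5 of 11 genes fallen and 0 risen (7 and 0 at an unadjusted p under 0.05; median difference -0.60, against 0.0043 over all genes), among them Itgam (-1.66) and Adgre1 (-0.82), which encode an integrin subunit and the F4/80 antigen. Their summed linear signal was 46041 and 45932 on zymosan arrays, against 52582 and 58693 on unstimulated ones. Neutrophil granule and marker genes were higher, with 10 of 12 kept genes risen and a summed signal of 5283 and 5482 with zymosan, against 1251 and 1314 without, while the neutrophil receptor gene Cxcr2 was below the filter's level on all arrays. The part of these shifts in the Sirpa difference was not tested.

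By its probe set of highest mean, 1416985_at, the genes whose 4 centred values lay nearest to those of Sirpa were Tctex1d4, Mks1 and Mecom. Their Euclidean distances over the 4 arrays were 0.0148, 0.0160 and 0.0248 (log2). Tctex1d4 lay at 5.29 to 5.63 and Mks1 at 5.49 to 5.85, against 11.64 to 11.99 for this Sirpa probe set. Mecom lay at 4.33 to 4.70, near the filter's level and below it on 1 array. Like this Sirpa probe set, none of these genes passed the threshold. The likeness rests on 4 arrays, and it chose these genes.

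Cd47 encodes the ligand that SIRPA reads, a membrane protein found on nearly all cells. At 1428187_at the values were 10.39 and 10.60 on zymosan arrays, against 9.92 and 9.90 on unstimulated arrays, so both zymosan arrays were higher. The difference of 0.58 (SE 0.12) was 1.49-fold and passed the threshold. At 1419554_at the groups also stood apart, with 10.52 and 10.44 against 10.16 and 10.33 without zymosan, but their difference, 0.23 (SE 0.12), fell short of the threshold. The bright probe set 1449507_a_at had 11.40 and 11.31 with zymosan, against 11.30 and 11.38 without. Its groups overlapped and differed by 0.017 (SE 0.11). The remaining pair of probe sets lay at 4.34 to 5.45, near the level of the filter, with overlapping groups. Their differences were -0.22 (SE 0.20) at 1430997_at and 0.28 (SE 0.19) at 1459908_at.

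Ptpn6 encodes SHP-1, the tyrosine phosphatase of blood cells that many inhibitory receptors recruit. At 1460188_at it had 9.86 and 9.78 on zymosan arrays, against 10.46 and 10.48 on unstimulated arrays, a difference of -0.65 (SE 0.10) or 1.57-fold lower. At 1456694_x_at it had 9.36 and 9.33 with zymosan, against 9.75 and 9.84 without, a difference of -0.45 (SE 0.10) or 1.37-fold lower. Both probe sets separated the groups, and their arrays agreed within 0.09 in each group. The suffix x of the second marks oligonucleotides that may also match other transcripts, so its value is the less certain.

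Ptpn11 encodes SHP-2, the related phosphatase that also docks on SIRPA and is present in most tissues. Its brightest probe set, 1451225_at, had 9.47 and 9.33 with zymosan, against 9.24 and 9.10 without, and its difference was 0.23 (SE 0.12), short of the threshold. The probe set 1421196_at had 5.43 and 5.45 with zymosan, against 5.57 and 5.62 without (difference -0.15, SE 0.10), and 1427699_a_at lay between 4.70 and 4.83 on all arrays. The first of these was higher and the second lower on both zymosan arrays, so the probe sets of Ptpn11 gave no common direction.

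Inpp5d encodes SHIP-1, which removes a phosphate from the lipid product of phosphoinositide 3-kinase. At 1424195_a_at it had 7.87 and 7.78 on zymosan arrays, against 8.42 and 8.56 on unstimulated arrays, a difference of -0.67 (SE 0.11) or 1.59-fold lower. At 1418110_a_at it had 10.10 and 10.14 with zymosan, against 10.44 and 10.45 without. The groups were again apart, but the smaller difference of -0.33 (SE 0.10) did not pass.

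The windows from 250 bases before to 50 after the transcription start (RefSeq, GRCm38.p6) are shown for the genes that had a probe set past the threshold and a window in the table, which were Cd47, Ptpn6 and Inpp5d. Capitals mark matches, on either strand, to GAGGAA (PU.1, the myeloid factor), TGANTCA (AP-1), GGG, any 3 letters and TTCC (NF-kB), GGGCGG (Sp1) and TATAAA (the TATA box). Cd47 lies at chr16:49855404-49855703 on the + strand, Ptpn6 at chr6:124738660-124738959 on the - strand and Inpp5d at chr1:87620062-87620361 on the + strand, each written in the direction of transcription. Cd47 has a second, nearly coincident window in the table, which is not shown.
Cd47: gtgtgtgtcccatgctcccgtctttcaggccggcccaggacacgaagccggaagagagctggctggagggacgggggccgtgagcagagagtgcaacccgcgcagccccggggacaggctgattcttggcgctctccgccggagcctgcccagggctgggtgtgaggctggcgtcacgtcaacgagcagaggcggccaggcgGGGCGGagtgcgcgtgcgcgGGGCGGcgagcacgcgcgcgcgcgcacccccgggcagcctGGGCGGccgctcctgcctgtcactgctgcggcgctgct
Ptpn6: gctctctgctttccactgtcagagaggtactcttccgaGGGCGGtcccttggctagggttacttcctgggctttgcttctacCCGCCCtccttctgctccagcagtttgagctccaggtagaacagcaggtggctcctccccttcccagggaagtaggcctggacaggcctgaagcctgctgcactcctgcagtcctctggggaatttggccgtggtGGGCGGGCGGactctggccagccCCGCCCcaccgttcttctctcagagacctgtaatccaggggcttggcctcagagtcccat
Inpp5d: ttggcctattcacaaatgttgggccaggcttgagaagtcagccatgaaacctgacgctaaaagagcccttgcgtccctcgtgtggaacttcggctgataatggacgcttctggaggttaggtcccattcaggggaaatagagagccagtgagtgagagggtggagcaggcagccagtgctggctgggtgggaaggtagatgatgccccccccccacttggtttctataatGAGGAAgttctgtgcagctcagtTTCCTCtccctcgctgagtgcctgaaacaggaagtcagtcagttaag

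The Cd47 and Ptpn6 windows held Sp1 matches alone of these motifs, 3 and 5 of them, a motif present in 35.7% of the 32851 windows searched. In Ptpn6 the matches that begin 33 and 29 bases before the start overlap. Inpp5d held 2 PU.1 matches, which begin 20 bases before and 3 bases after the start, and no Sp1 match. A PU.1 match was present in 28.3% of all windows, and also in those of Ptpn11, Lair1, Pirb and Cd300a. Sirpa and Cd200r1 had no window to search. Among the other 7 genes, Pirb was the single one with an NF-kB match (5.56% of all windows), 93 bases before its start. The AP-1 letters (7.81% of all windows) and the TATA letters (13.6%) were found in none of the 7. These matches are letters in a window, not sites shown to be bound.

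Pirb encodes paired immunoglobulin-like receptor B, an inhibitory receptor for class I histocompatibility molecules. Its probe set 1424302_at had 10.22 and 10.33 on zymosan arrays, against 10.79 and 10.66 on unstimulated arrays. The arrays did not overlap, and the difference of -0.45 (SE 0.11) fell just outside the threshold (adjusted p = 0.0501), where Ptpn6 at 1456694_x_at, with the same difference to 2 decimals, fell just inside (adjusted p = 0.0417). In limma's fit Pirb passed with a filter at the 60th percentile (adjusted p = 0.0361) and after repeated quantile normalization (adjusted p = 0.0458). It also passed with a trend and robust variance model (adjusted p = 0.0249). The day of hybridization as a random block, at 1 correlation averaged from estimates per probe set, gave an adjusted p of 0.0461. Pirb stayed outside with no filter (adjusted p = 0.0658) and with median centring (adjusted p = 0.0556). Nor did it pass in limma's treat for a minimum fold of 1.5. The day as a block at a correlation pooled over all probe sets also left it outside (adjusted p = 0.169). Leaving out unstimulated replicate 1 or 2 gave differences of -0.39 and -0.51, and it did not pass in either case. A further 3 probe sets carry the symbol Pirb together with those of activating relatives and were not used.

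Lair1 encodes a receptor for collagens. At 1439067_at it had 7.69 and 7.50 with zymosan, against 7.85 and 7.99 without, and the groups did not overlap (difference -0.32, SE 0.12). At 1430447_a_at it had 9.25 and 9.32 with zymosan, against 9.40 and 9.16 without, and at 1444040_at 8.86 and 8.95 with zymosan, against 8.94 and 8.76 without. At both of these the groups overlapped, with differences of 0.0082 (SE 0.13) and 0.059 (SE 0.12). None of the Lair1 probe sets passed the threshold.

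Cd300a encodes a receptor for phospholipids that dying cells expose, and its level differed more between the unstimulated arrays than between the groups. At 1435903_at it had 9.40 and 9.35 with zymosan, against 9.40 and 8.82 without, so that the first unstimulated array matched the zymosan arrays and the second stood 0.58 below it. At 1445292_at it had 5.04 and 5.21 with zymosan, against 5.03 and 4.53 without, again with the second unstimulated array low. The differences of 0.27 (SE 0.20) and 0.34 (SE 0.19) did not pass. Without the first unstimulated array they were 0.56 and 0.59 and passed, and without the second they were -0.025 and 0.092 and did not.

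Cd200r1 encodes the receptor of CD200, which signals through the adaptor DOK2 and not through an inhibitory tyrosine motif of the usual kind. At 1422191_at it had 9.79 and 9.77 with zymosan, against 9.75 and 9.41 without, and at 1439703_at it had 6.50 and 6.68 with zymosan, against 6.64 and 6.32 without. The second unstimulated array was the lowest at both, and the differences of 0.20 (SE 0.14) and 0.11 (SE 0.15) did not pass the threshold. Over all 23 probe sets, 10 were higher on the first unstimulated array and 13 on the second, with a median gap of 0.15 between them, against 0.096 between the zymosan arrays.

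**Figure D3:**
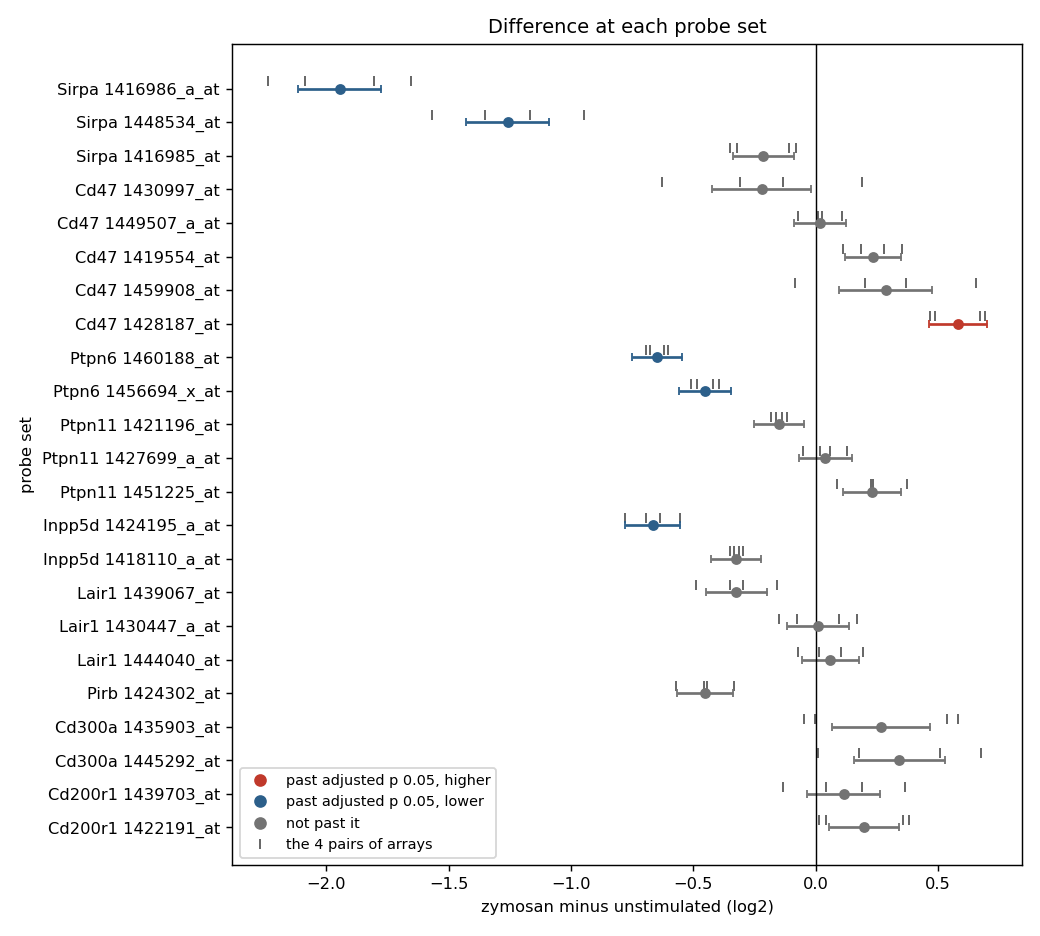
Difference between zymosan and unstimulated arrays (horizontal axis, log2) at each of the 23 probe sets (vertical axis), as limma's estimate with its SE; ticks above each point are the 4 differences between single arrays, and colour shows which passed an adjusted p of 0.05. Sirpa spans -1.94 to -0.22 over its probe sets, both Ptpn6 probe sets are lower, Cd47 at 1428187_at is the 1 that passed upward (0.58), and the ticks of Cd300a run from -0.05 to 0.67.

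How firmly each call stood depended on which arrays and which minimum size were asked for. Leaving out either zymosan array kept 1 call among the 23, that of Sirpa at 1416986_a_at, with differences of -2.16 and -1.73. A single zymosan array then remains and is assumed to vary like the unstimulated pair. That pair alone gives a probe set's own spread, which limma moderates with that of all kept probe sets. Sirpa at 1448534_at lost its call there with differences of -1.37 and -1.15, close to the -1.26 over all arrays. When the day of hybridization was made a random block, at a correlation pooled over all probe sets, the 2 Sirpa calls stayed and those of Ptpn6, Inpp5d and Cd47 were lost. In limma's treat, a test against a minimum fold of 1.5, Sirpa at 1416986_a_at alone kept its call (adjusted p = 0.0181). Sirpa at 1448534_at lost its call there (adjusted p = 0.139). Without the second unstimulated array, Cd47 at 1428187_at lost its call at a difference of 0.57 and Ptpn6 at 1456694_x_at at -0.41. This Ptpn6 probe set also lost it with no filter on low values (adjusted p = 0.0546).

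Partner genes were read from lists by role, each gene by its kept probe set of highest mean. Of 97 genes besides the 9, 14 rose and 16 fell, where 8.36% of all 13222 genes rose and 5.64% fell, and their median difference was -0.15, against 0.0043 over all genes. Without zymosan replicate 1 there were 3 risen and 2 fallen, without zymosan replicate 2 3 and 1, and blocking on the day at the pooled correlation left 7 and 4. Lyn and Lilrb4a were not analysed here, as no probe set named them alone.

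Among 13 adaptors, ligands and neighbours of SIRPA and CD47, Thbs1 rose and 0 fell in limma's fit (1 and 2 at an unadjusted p under 0.05). Thbs1 encodes thrombospondin-1, a secreted ligand of CD47, and had 7.18 and 7.03 on zymosan arrays, against 5.19 and 5.07 on unstimulated arrays. The groups were far apart, and the difference of 1.98 (SE 0.12, adjusted p = 0.00199) was 3.94-fold, while its other kept probe set rose by 0.61. Tyrobp, the gene of the activating adaptor DAP12, had 13.01 and 12.93 with zymosan, against 13.04 and 13.15 without (difference -0.13, adjusted p = 0.477). Skap2, an adaptor bound by SIRPA, differed by 0.0048 (SE 0.11) at the probe set that represented it, but its other 2 kept probe sets fell by 0.55 and 0.60.

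Other inhibitory receptors differed in both directions, with 1 of 15 kept genes risen, 3 fallen and a median difference of -0.35. Fcgr2b, the inhibitory receptor for IgG that docks SHIP-1, rose 1.90-fold (SE 0.15 on the log2 scale, adjusted p = 0.0150). It had 11.08 and 11.10 with zymosan, against 9.99 and 10.34 without, and its other 3 kept probe sets also rose, by 0.73 to 0.81. Cd72, a lectin-like receptor that binds SHP-1 and is best known from B cells, fell most on this list. It had 8.10 and 8.26 on zymosan arrays, against 10.62 and 10.16 on unstimulated arrays (difference -2.21, SE 0.18, adjusted p = 0.00337), or 4.64-fold lower. Clec4a2, the inhibitory lectin DCIR, fell by 0.67 (SE 0.12) and Vsir, the gene of VISTA, by 0.67 (SE 0.11). The other kept probe set of Clec4a2 differed by -0.20 and did not pass, while that of Vsir differed by -0.94 and passed. Without zymosan replicate 1 or zymosan replicate 2, the call of Cd72 alone was kept on this list (3 higher and 5 lower, and 2 and 5, at an unadjusted p under 0.05). Blocking on the day at the pooled correlation kept Cd72 and Fcgr2b. Without unstimulated replicate 1 there were 3 risen and 6 fallen, with a median difference of -0.15.

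Some B cell markers were lower on zymosan arrays, as Cd72 was. Of 5 kept, Cd79b fell by 0.58 and Ighm by 1.08 and 0 rose in limma's fit (2 and 0 at an unadjusted p under 0.05), and Cd79a, Pax5 and Blk did not pass the test. The summed signal of the 7 measured was 564 and 523 with zymosan, against 812 and 1209 without, and Ms4a1 was below the filter's level on all arrays. The second unstimulated array had the higher sum and the lower Cd72 value. The part of these markers in the Cd72 difference was not tested. Siglece, which encodes a sialic acid receptor with inhibitory motifs, lay at 4.37 and 4.48 with zymosan, against 4.68 and 4.95 without, close to the filter's level, and did not pass (difference -0.39, adjusted p = 0.107).

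Of 11 kept ligand genes 3 rose and 2 fell. C1qa and C1qb encode chains of complement C1q, a ligand of human LAIR1. C1qa had 10.01 and 9.91 on zymosan arrays, against 11.26 and 12.20 on unstimulated arrays, and fell by 1.77 (SE 0.30, adjusted p = 0.0175), while C1qb fell by 0.82 (SE 0.17), a gene named after its values were seen. The unstimulated arrays of C1qa lay 0.94 apart. Cd274, the gene of PD-L1, had 8.35 and 8.24 with zymosan, against 7.47 and 6.60 without, and rose 2.39-fold (adjusted p = 0.0368). Cd24a, whose product is read by inhibitory Siglec receptors, had 8.97 and 9.15 with zymosan, against 7.97 and 6.53 without. The difference in limma's fit was 1.81 (SE 0.45, adjusted p = 0.0482). Its other 2 kept probe sets differed by 1.25 and 1.89, and 1 of these passed. Cd24a lost its call with no filter (adjusted p = 0.0604). With the day as a block at the pooled correlation, Cd24a (adjusted p = 0.105) and Cd274 (adjusted p = 0.0873) both lost theirs. The unstimulated arrays of Cd274 and Cd24a were far from each other, though below both zymosan arrays. Cd200, the ligand gene of the CD200 receptor, had 4.74 and 4.91 with zymosan and lay below the filter's level without (4.00 and 3.82), so it was at least 1.35-fold higher (adjusted p = 0.0107), its mean set against the filter's level. Leaving out zymosan replicate 1, and likewise zymosan replicate 2, limma called 0 ligand genes, with 3 higher and 2 lower at an unadjusted p under 0.05 each time.

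**Figure D4:**
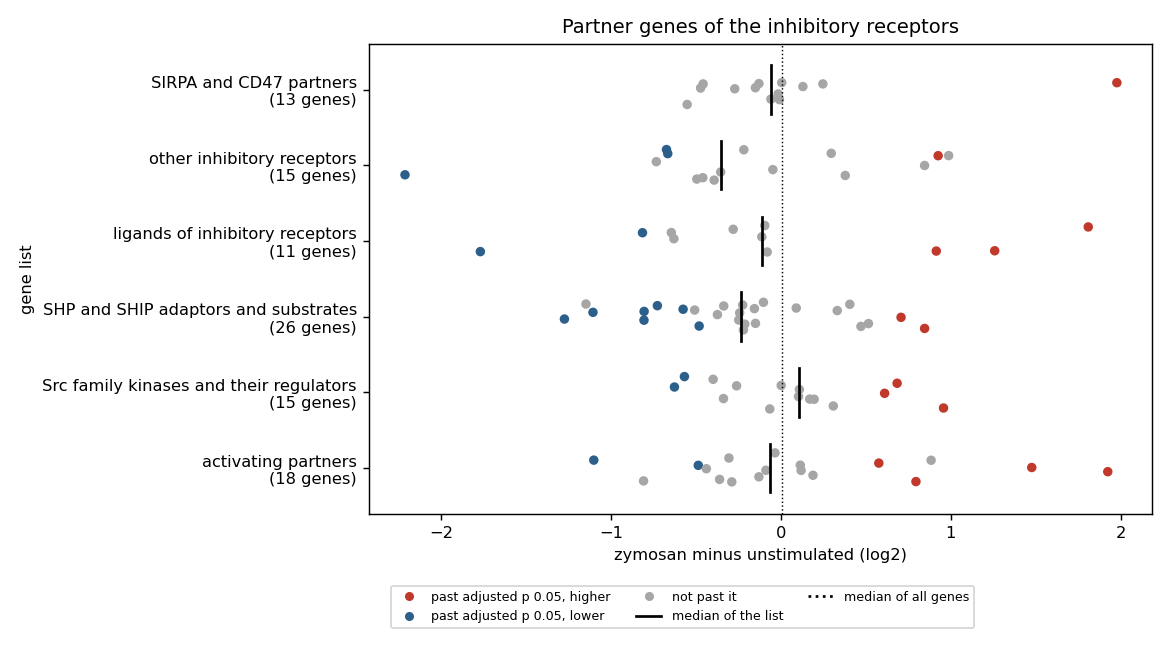
Difference between zymosan and unstimulated arrays (horizontal axis, log2) for the kept genes of 6 lists of partner genes (vertical axis, with the number of genes); each point is a gene by its probe set of highest mean, coloured by whether it passed an adjusted p of 0.05, solid bars are list medians and the dotted line is the median of all genes. Cd72 (-2.21) and C1qa (-1.77) lie farthest left and Thbs1 (1.98) and Clec4n (1.92) farthest right, and the adaptor list holds 7 genes that fell and 2 that rose.

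Adaptors and opponents of the phosphatases were lower more often than higher, with 7 of 26 fallen, 2 risen and a median difference of -0.23. Inppl1, the gene of the lipid phosphatase SHIP-2, had 7.24 and 7.68 on zymosan arrays, against 8.51 and 8.96 on unstimulated arrays, and fell 2.42-fold (adjusted p = 0.0173). Gab3, an adaptor that docks SHP-2, fell by 1.11 (SE 0.15, adjusted p = 0.0102), with 4.94 and 4.95 against 5.87 and 6.24 without zymosan. Dok2, the adaptor of the CD200 receptor, had 9.50 and 9.47 with zymosan, against 9.93 and 10.00 without, and fell by 0.48 (SE 0.10, adjusted p = 0.0339). Its relatives Dok1 (-0.58) and Dok3 (-0.73) and its partner Rasa1 (-0.81), the gene of a Ras GTPase activator, fell too, and these 3 were named after their values were seen. Of the catalytic subunits of phosphoinositide 3-kinase, whose product SHIP-1 removes, Pik3cg fell by 0.81 (SE 0.17) while Pik3cb rose by 0.85 (SE 0.11) and Pik3ca, likewise named after its value was seen, by 0.71 (SE 0.11). Without zymosan replicate 1 limma called 0 genes of this list, with 2 higher and 10 lower at an unadjusted p under 0.05, and without zymosan replicate 2 it called 0, with 5 and 8.

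Of 15 Src family kinases, regulators and other tyrosine phosphatases, 3 rose and 2 fell. All 3 that rose encode tyrosine phosphatases. Ptpre had 10.24 and 10.01 with zymosan, against 9.26 and 9.08 without (difference 0.96, SE 0.13, adjusted p = 0.0114), Ptpn2 rose by 0.68 (SE 0.15) and Ptpn1 by 0.61 (SE 0.10). Other kept probe sets of Ptpre and Ptpn2 did not pass the test. Sh2b3, an adaptor that dampens cytokine signals, fell by 0.63 (SE 0.11), and Csk, the kinase that silences Src family members, by 0.57 (SE 0.10), and was named after its value was seen. Fgr, a myeloid Src family kinase, had 5.93 and 5.85 with zymosan, against 6.17 and 6.13 without, and did not pass (difference -0.26, adjusted p = 0.154). Without zymosan replicate 1 limma called 0 genes of this list, with 4 higher and 2 lower at an unadjusted p under 0.05, and without zymosan replicate 2 it called 0, with 3 and 2.

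Of 18 activating receptors and adaptors, 4 rose and 2 fell. Clec4n and Clec4e encode Dectin-2 and Mincle, lectins for fungal and mycobacterial glycolipids and glycans that signal through the adaptor encoded by Fcer1g. Clec4n had 10.10 and 10.12 on zymosan arrays, against 8.03 and 8.34 on unstimulated arrays (difference 1.92, SE 0.14), and Clec4e had 11.91 and 11.77, against 10.50 and 10.24 without zymosan (difference 1.48, SE 0.13). Trem3 rose by 0.79 (SE 0.14). The activating IgG receptor gene Fcgr1 fell by 1.10 (SE 0.11), with 9.34 and 9.18 against 10.39 and 10.33 without zymosan. Fcer1g itself had 12.41 and 12.37 with zymosan, against 12.67 and 12.70 without, and did not pass (difference -0.29, adjusted p = 0.117). Without zymosan replicate 1 the list held 2 risen and 1 fallen, without zymosan replicate 2 it held 2 and 0 (5 and 1 at an unadjusted p under 0.05), and blocking on the day at the pooled correlation left 2 and 1. Clec4n and Clec4e kept their calls in these settings, Trem3 lost its call in each, and Fcgr1 lost it without zymosan replicate 2 (adjusted p = 0.0643).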

How the data were processed

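RNA of 4 Affymetrix Mouse430_2 arrays was compared, 2 from zymosan-treated and 2 from unstimulated macrophages. The deposited values are log2 values that the authors made with RMA (background correction, normalization, summary over probes), per the submitters' processing notes; which arrays were normalized together is not given in the sources used here. Array medians lay between 4.92 and 4.94. The scanner's settings files, which hold no expression, gave the processing days and operators.

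Of 45037 probe sets without controls, 34945 had 1 symbol, 932 several and 9160 none in the platform annotation. Differences are zymosan minus unstimulated, fitted with lmFit and eBayes in limma 3.58.1 (R 4.3.3) on the 27571 kept probe sets, 2-sided, with Benjamini-Hochberg adjustment over all of them. The SE is limma's moderated one. The script was tested on simulated data. The number of arrays limits the precision. Because limma's duplicateCorrelation gives no value with 4 arrays and 2 coefficients, its estimate was computed per probe set with statmod 1.5.0. A mean of these estimates, trimmed of the extremes, gave 1 correlation used for all probe sets. A pooled correlation, from the mean squared gaps within the zymosan and the unstimulated pair, was added after seeing the data.

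The members, gene lists and naming rule were chosen with earlier results of these data known. The rule named every probe set of the members, up to 4 genes per list of largest difference past the threshold without overlap, and 14 fixed genes; C1qb, Dok1, Dok3, Rasa1, Pik3ca, Csk and the markers were named after their values were seen. Alternatives were other filters, normalizations, variance models, a minimum fold, the day as a block and leaving out each array.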

Additional observations from a re-analysis of the deposited data

How the results depend on the processing

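No paired analysis was possible because the labels give the arrays no shared replicate numbers. No other background correction was run, as the values come summarized by RMA. Over all probe sets 2339 rose and 2054 fell, among the 23 probe sets 1 and 5, and among the 97 partner genes 14 and 16. With limma's treat for a minimum fold of 1.5 the counts were 253 and 197, 0 and 1 (where 0 and 2 had an unadjusted p under 0.05), and 3 and 1. Blocking on the day at the pooled correlation of 0.54 (added after seeing the data) gave 741 and 647, 0 and 2 (1 and 6 unadjusted), and 7 and 4. At the correlation of -0.045, averaged from estimates per probe set, these counts were within 1.5 times of the main ones. The trend and robust variance model gave 28 fallen partner genes, and the probe set of smallest p 26. Leaving out each array in turn gave 231 to 2531 risen and 157 to 2280 fallen over all probe sets, 0 to 3 and 1 to 5 among the 23 (1 to 4 and 5 to 10 unadjusted), and 3 to 18 and 1 to 21 among partner genes; the low ends came without a zymosan array, and the 0 risen among the 23 also without unstimulated replicate 2. Other filters, median centring and repeated quantile normalization kept these counts within 1.5 times. Differences near 0 changed sign. Leaving out each array, Lair1 ran from -0.11 to 0.13 (1430447_a_at; -0.029 with quantile normalization) and -0.030 to 0.15 (1444040_at), Cd47 from -0.031 to 0.065 (1449507_a_at) and -0.47 to 0.026 (1430997_at), Cd300a from -0.025 to 0.56 (1435903_at), Cd200r1 from -0.047 to 0.28 (1439703_at), Ptpn11 from -0.017 to 0.094 (1427699_a_at) and Skap2 from -0.054 to 0.064 (-0.0088 with quantile normalization). None of these was past the threshold with all arrays, and the cause of the changes was not tested.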
